A study of Mus musculus with 2 samples.

Results

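In the liver DNA of mice carrying a Uhrf1 that cannot bind H3K9me2/3, most methylated stretches of the genome lost a few points of methylation, and a small set lost far more. That set consisted of 1183 autosomal windows of 1 kb that stood at 60% or more in WT and were lower in KI by 20 percentage points or more. They were chosen by these 2 values from 77981 measured autosomal windows, of which 53029 stood at 60% or more in WT. A window was measured where at least 5 CpGs outside CCGG sites had at least 10 reads in both libraries, and its level is the mean over those CpGs. The cytosines of the 2 strands of a CpG count as separate CpGs, and a change is the KI level minus that of WT, in points. Because the drop itself selected the windows, its size is described here without a test. With 1 library per genotype there was no spread between animals, and any difference is a difference between 2 libraries.

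The WT library held liver DNA pooled from 3 male mice that were 3 months old. The KI library held the same pool of 3 males homozygous for the Uhrf1 YP187/188AA substitution, which replaces residues of the tandem Tudor domain needed to bind methylated H3K9. The labels give strain C57BL/6 for both, whereas the paper derives the KI allele from embryonic stem cells of a 129 strain and prints the strain as C57BL/C. The substitution is carried in the germ line, so all cell types of the liver have it, and whole tissue was used. The label of the KI library gives its genotype as a knock out, whereas its title and the paper give a knock-in, and it was treated as KI. Of the hepatocyte markers looked up to check the tissue, the promoters of Alb, Apoa1, Ttr, Cps1 and Serpina1c had no measured CpG, and Hnf4a stood at 64.0% in WT and 50.4% in KI over 10 CpGs. The markers Lrat of stellate cells and Epcam of cholangiocytes were below 1% in both libraries, and the Cd3e promoter of T cells went from 70.1% to 51.3% over 7 CpGs. The share of each cell type in the pools was not measured. Fewer cells with a methylated copy and less methylation in every cell cannot be told apart in bulk DNA.

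UHRF1 carries methylation through cell division. Its SRA domain holds the hemimethylated CpGs left behind a replication fork, its tandem Tudor domain reads di- and trimethylated H3K9, and it brings the maintenance enzyme DNMT1 to the new strand. CpG methylation in the mouse liver is high over most of the genome, both between and within genes, and low at CpG islands and active promoters. In reduced representation bisulfite sequencing (RRBS), MspI cuts at CCGG and the ends of short fragments are read, so every window here is a sampled fragment or a few of them.

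The stretches below hold the measured CpGs of the windows with the largest losses that could be shown, and of the window near a coding gene's 5′ end with the largest loss. They are plus-strand sequence of mm9, 5′ to 3′. Capitals mark the CpGs outside CCGG sites that had enough reads in both libraries to set the level of the window. CpGs of CCGG sites are in lower case whatever their reads.
Gprc5b coding exon, chr7:126127694-126127974: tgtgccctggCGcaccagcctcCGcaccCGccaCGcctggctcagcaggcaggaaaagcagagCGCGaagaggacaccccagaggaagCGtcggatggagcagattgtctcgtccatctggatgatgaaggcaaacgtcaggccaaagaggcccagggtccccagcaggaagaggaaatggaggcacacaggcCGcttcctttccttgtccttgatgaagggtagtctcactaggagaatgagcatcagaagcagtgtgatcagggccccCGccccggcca
Intergenic, nearest Lrrc33, chr16:32173590-32173712: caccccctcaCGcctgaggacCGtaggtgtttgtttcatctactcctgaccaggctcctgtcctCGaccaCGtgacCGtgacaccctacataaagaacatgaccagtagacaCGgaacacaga
D130043K22Rik coding exon and start of the next intron, chr13:24971545-24971652: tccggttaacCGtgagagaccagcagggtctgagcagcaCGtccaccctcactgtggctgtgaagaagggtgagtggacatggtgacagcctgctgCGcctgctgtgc
Intergenic, nearest Olfr444, chr6:42938403-42938532: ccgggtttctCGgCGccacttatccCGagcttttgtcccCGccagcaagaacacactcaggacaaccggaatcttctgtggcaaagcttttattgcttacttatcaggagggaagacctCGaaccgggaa
Tmem174 coding exon near its 5′ end, chr13:99406659-99406929: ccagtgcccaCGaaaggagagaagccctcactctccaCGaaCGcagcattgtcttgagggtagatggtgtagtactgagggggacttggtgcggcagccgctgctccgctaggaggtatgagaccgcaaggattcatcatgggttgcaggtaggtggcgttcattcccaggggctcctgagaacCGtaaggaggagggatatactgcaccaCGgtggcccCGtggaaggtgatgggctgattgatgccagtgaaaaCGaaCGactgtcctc

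The Gprc5b window (chr7:126127001-126128000) showed the largest loss of all. Gprc5b encodes an orphan G protein-coupled receptor, and the measured CpGs lay in its coding sequence. Its level was 77.5% in WT and 23.0% in KI over 9 CpGs of 1 strand, covered by 13 or 14 reads each in WT and 11 to 14 in KI. The loss was not even along the stretch. The 7 CpGs nearest the left end of the printed sequence stood at 64.3% to 78.6% in WT and at 7.14% to 7.69% in KI. The last 2 CpGs moved from 76.9% to 63.6% and from 92.3% to 90.9%. The same few reads covered neighbouring CpGs, so a 95% Wilson interval of 69.3% to 83.9% in WT and 14.4% to 29.2% in KI, computed over all CpG reads as though independent, is too narrow. Intervals here cover counting error only, and PCR copies cannot be removed.

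The intergenic window on chromosome 16 near Lrrc33, the gene of a leucine-rich repeat protein that anchors latent TGF-beta, went from 86.1% to 42.3%. All of its 6 CpGs changed, by -28.7 to -61.5 points. The exonic window of D130043K22Rik, whose human counterpart is KIAA0319, went from 76.5% to 34.3%, and its 6 CpGs changed by -35.2 to -49.4 points. The intergenic window on chromosome 6 nearest to Olfr444, an olfactory receptor gene, went from 78.2% to 37.1%. In that window 1 of 5 CpGs was at 0% in both libraries and so could not fall, and the largest fall was 57.1 points. At Tmem174, a gene of a transmembrane protein, the window 571 bp from the annotated start went from 74.3% to 42.5%, with all 8 CpGs lower. These windows rested on few reads. Summed over CpGs, the Tmem174 window had 183 reads in WT and 87 in KI, and the Olfr444-near window had 55 and 70.

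The loss was partial in nearly every window. Over the 1183 windows the median level was 80.3% in WT (range 60.4% to 100%) and 56.3% in KI (range 16.9% to 79.7%). The median change was -23.0 points, which took 29.4% of the WT level. By size, 822 windows lost 20 to 25 points, 257 lost 25 to 30, 97 lost 30 to 40, and 7 lost more than 40. In KI, 353 windows were under 50%, 78 under 40%, 9 under 30% and 1 under 20%. A loss of 50% or more of the WT level occurred in 23. For the other 51846 methylated windows the median change was -4.26 points. The set lay at the far end of a range in which 84.7% of the 53029 windows were lower in KI.

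**Figure D1:**
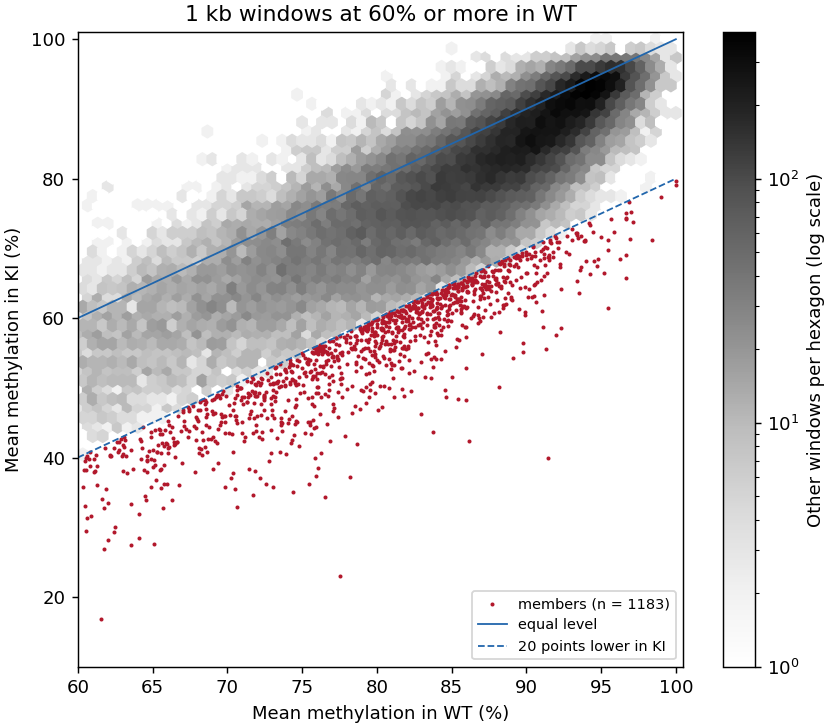
Mean methylation of each 1 kb window in WT (horizontal axis, %) against KI (vertical axis, %), for windows at 60% or more in WT. Grey hexagons count the other windows on a log scale and red points are the 1183 windows lower by 20 points or more, which lie under the dashed line by the way they were chosen, mostly close to it.

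The 1183 windows were 2.23% of the 53029 that could have qualified. The share depended on how windows were measured. It was 1.33% (442 of 33209) with the 2 strands of a CpG summed, 0.595% (461 of 77529) with CCGG sites included, 0.906% (223 of 24615) with at least 10 CpGs and 3.38% (1803 of 53336) with the median of the CpGs. With the libraries exchanged, 20 of 50495 windows at 60% or more in KI were lower in WT by 20 points or more. Only 11 of the 53029 were higher in KI by as much. The share chosen depended on the WT level. It was 5.34% at 60% to 65% in WT, 6.30% at 65% to 70%, 3.59% at 80% to 85% and 0.492% at 90% to 95%. Around the limit of -20, the last windows inside had changes of -20.006, -20.013 and -20.023 points, on chromosomes 2, 5 (in Nsg1) and 6. The next ones outside, in Wnt7b, A730056A06Rik and Ccl3, had changes of -19.996, -19.992 and -19.987 points. At the limit of 60%, the lowest WT levels inside were 60.4%, 60.4% and 60.5%, in Ddr1, on chromosome 2 near Galnt13 and in Spock2. Windows that fell by at least 20 points just outside it had WT levels just below 60%. The limits thus cut through a continuous range.

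The windows were thinly sampled compared with the others. They had a median of 6 CpGs against 8, and 76.5% held CpGs of 1 MspI fragment against 60.9%. The median number of reads per CpG was 58.8 in WT and 53.5 in KI, against 76.0 and 69.0. A mean over few CpGs with few reads passes a limit more readily in either direction, and what this added to the set was not tested. The exchange of libraries above cannot measure it. Most windows were lower in KI, so they lay nearer to a fall of 20 points than to a rise of 20. Of the 1183, 970 had 20 reads or more per CpG on average in both libraries and 223 had 10 CpGs or more.

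The drop was spread over the CpGs within a window. Of the 9005 measured CpGs, 95.8% were lower in KI, and in 882 windows (74.6%) every CpG was lower. In the other windows, 68.6% of CpGs were lower and 10.5% of windows had every CpG lower. Where both strands were measured, 1012 of 1047 windows (96.7%) were lower by 10 points or more on each strand, against 8.96% of the other windows. These counts follow in part from the choice of windows. The levels became less even, since the median SD between CpGs of a window went from 11.5 points in WT to 19.8 in KI, and from 7.83 to 10.5 in the other windows. CpGs at 90% or more went from 28.0% of the total to 4.81%, against 53.0% to 38.9% in the others. Those between 40% and 80% went from 42.6% to 59.9%, against 18.7% to 30.3%. CpGs under 10% made up 1.99% in KI. The SDs and shares come from the same CpGs that chose the windows, so they too follow in part from the choice. Most CpGs were thus read as methylated on some molecules and unmethylated on others in KI.

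CpGs with different flanking bases lost different amounts. W stands for A or T and S for C or G, so WCGW is a CpG with A or T on both sides. CpGs of the WCGW kind that have no other CpG nearby are the ones known as background to keep methylation least well in dividing cells. In the 1183 windows, WCGW CpGs went from a mean of 73.8% to 46.1%, by -27.6 points (n = 2177). CpGs with A or T on 1 side changed by -24.4 (n = 5025), and SCGS CpGs by -18.4, from 85.6% to 67.2% (n = 1803). In the other windows the same order held, at -6.58, -5.02 and -3.58 points. A CpG with no other CpG within 35 bp changed by -27.2 points (n = 1374), and one with 3 or more neighbours by -21.9 (n = 2248). WCGW CpGs without a neighbour fell from 66.2% to 37.0% (n = 429), a change of -29.2 points against -8.77 in the other windows. The 1183 windows also held more of these CpGs. WCGW made up 24.2% of their CpGs against 17.4% in the others, and CpGs without a neighbour 15.3% against 8.60%. CpGs of a window share reads, so these means carry no independent error. The same CpGs chose the windows, so larger changes in the set than in the others follow from the choice. The same order was seen inside windows. In the 337 windows of the set with both kinds, the WCGW mean change was lower than that of SCGS by a median of -12.0 points (quartiles -24.0 and -0.275), and it was the lower one in 253 (75.1%). In 22111 other windows the median was -3.33 points, and WCGW was the lower one in 68.1%. The set had been chosen for a larger drop, so the sizes of these gaps are not compared between the set and the others. CpGs without a neighbour set against those with 3 or more differed by a median of -10.5 points in 145 windows of the set.

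The windows lay mostly between genes. Of the 1183, 860 (72.7%) were outside annotated genes and more than 1 kb from any 5′ end, against 44.4% of the other windows. Introns held 222 (18.8% against 30.4%), exons 69 (5.83% against 22.1%), and 32 (2.70% against 3.06%) were within 1 kb of a 5′ end. Put as rates, 3.60% of methylated intergenic windows were in the set, 1.39% of intronic, 1.98% of those near a 5′ end and 0.597% of exonic windows. Counting gene bodies alone, 73.2% overlapped no gene, with a Wilson interval of 70.6% to 75.6% that treats windows as independent.

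They also lay in AT-rich, gene-poor surroundings. The GC content of the surrounding 100 kb had a median of 40.9%, against 45% for the others. The rate fell from 6.50% of windows where that GC content was below 38% to 0.674% where it was 50% or more. It was 5.71% where no protein-coding 5′ end lay in the surrounding 1 Mb and 1.41% where 41 or more did. The nearest annotated 5′ end was a median of 45526 bp away against 25374 bp. The nearest window under 20% in WT was 189 kb away against 51 kb. Within the 1 kb itself, the windows had a median of 14 CpGs against 19 and a GC content of 46.3% against 49.1%. The distance to a window under 20% in WT rests on WT levels. The other medians refer to sequence or position, which the limits on level and change did not use. The rate did depend on the number of measured CpGs, at 4.68% with 5 CpGs and 0.191% with 20 or more.

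**Figure D2:**
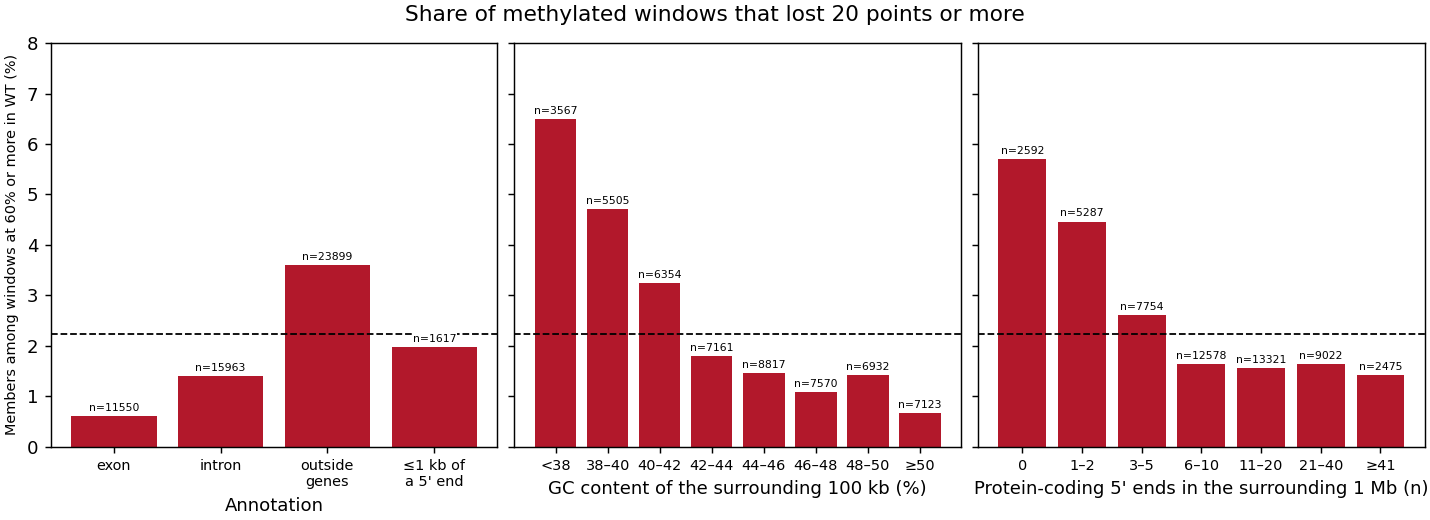
Percentage of windows at 60% or more in WT that were lower in KI by 20 points or more (vertical axis), by annotation, by GC content of the surrounding 100 kb and by the number of protein-coding 5′ ends in the surrounding 1 Mb. Bars carry the number of windows, the dashed line is the 2.23% of all windows, and the bars are tallest outside genes, below 38% GC and where there are no coding 5′ ends.

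Position relative to genes and GC content each went with the rate when the other was held. Below 40% GC, 6.00% of windows outside genes and 3.25% of those in genes or near a 5′ end were in the set. At 46% GC or more, the rates were 1.99% and 0.741%. With 10 CpGs or more, they were 1.97% and 1.24% below 40% GC, and 0.948% and 0.308% at 46% or more. The order was thus the same among the windows with the most CpGs. Rates at 80% or more in WT were 4.05% outside genes and 2.26% elsewhere below 40% GC, and 1.10% and 0.317% at 46% or more. At 60% to 80% in WT they were 17.2% and 8.75%, and 3.89% and 2.23%. Among windows at 80% or more in WT, the surrounding GC content had a median of 40.3% in the set (n = 607) and 44.7% in the others (n = 41767). Between 60% and 80% the medians were 41.8% (n = 576) and 46.2% (n = 10079).

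Every autosome held some of the windows. The rate ran from 1.48% on chromosome 10 (44 of 2970) to 3.58% on chromosome 7 (127 of 3545), and the latter also held the 2 windows with the largest losses. Another window of the set lay within 10 kb for 49 of the 1183, in 23 groups, and 12 had one directly adjacent. No group held more than 3. Measured windows were sparse, and ones outside the set lay within 5 kb for only 334 of the 1183. Methylated windows outside the set lay directly adjacent in 115 pairs. The counts that the 2.23% of all windows would give were not computed, so whether the set was scattered or clustered was not tested.

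Some of the windows held repeated sequence. Words of 16 bases that occur at least 100 times in the genome covered a median of 15.8% of a window, against 5.79% in the others, but outside genes the medians were 22.1% and 19.4%. The rate was 1.32% where they covered under 1%, 1.87% at 1% to 10%, 3.32% at 10% to 50% and 2.60% at 50% or more. For 258 windows, in 48 families, the measured stretch shared 16-base words with that of another window of the set, at least 50% of those of the shorter one. The same count was not made among the other windows. The largest family had 73 windows on 18 chromosomes, 65 of them outside genes, and the next had 20, 20 and 17. The median of the 73 went from 82.1% to 58.7%. Copies outside the set were methylated windows with at least 50% of their words among those of the family. Counted with these copies, the 73 were 2.50% of 2917 windows, near the 2.23% of all windows. Windows of the set had been linked in pairs instead, so this share and those of the other families are approximate. The 2844 copies that were not in the set had a median change of -6.74 points, and 98.5% of them were lower in KI. Copies of the families with 20, 20 and 17 windows had median changes of -7.63 (n = 278), -10.9 (n = 284) and -2.79 (n = 459), and 6.71%, 6.58% and 3.57% of these families were in the set. Copies of each family thus lay on both sides of the limit of -20 points. The reads were uniquely mapped, yet copies that differ at few bases can exchange reads, so these windows are uncertain.

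The stretches below show that likeness. They are the windows of the largest family that were also among the largest losses or the best covered, beside the window with the most reads, in Chi3l3, with measured CpGs in capitals as before.
Repeated stretch, nearest Gm3286, chr5:95929432-95929490: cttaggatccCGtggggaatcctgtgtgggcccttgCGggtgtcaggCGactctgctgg
Repeated stretch, nearest Gm14851, chr8:22246751-22246997: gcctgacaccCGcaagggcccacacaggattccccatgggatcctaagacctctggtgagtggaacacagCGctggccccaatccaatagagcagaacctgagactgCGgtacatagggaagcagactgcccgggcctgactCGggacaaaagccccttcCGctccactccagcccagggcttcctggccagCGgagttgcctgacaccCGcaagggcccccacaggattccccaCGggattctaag
Chi3l3 intron, chr3:105980618-105980716: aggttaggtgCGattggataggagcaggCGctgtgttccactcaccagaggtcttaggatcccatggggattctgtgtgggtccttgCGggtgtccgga

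The Gm3286-near and Gm14851-near stretches matched at 55 of 59 aligned bases (93.2%), on opposite strands. The Chi3l3 stretch had been placed in no family by shared words, yet it matched the Gm14851-near stretch at 86 of 99 aligned bases (86.9%), so the count of 258 misses more distant copies. Chi3l3 encodes a chitinase-like lectin made by macrophages. Its intronic window went from 71.3% to 48% with 3622 reads summed over 6 CpGs in WT and 3396 in KI. The Gm3286-near window went from 75.5% to 36.3% with 102 and 105 reads. The Gm14851-near window went from 83.0% to 61.7% with 3220 and 2931 reads, 15 of its 16 CpGs being lower.

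The other windows with the most reads had like losses, and those on chromosomes 9 and 19 belong to families of 3 and 20 windows that share sequence. On chromosome 2 nearest to Api5 the level went from 83.0% to 60.9%, with all 12 CpGs lower. On chromosome 9 nearest to Gm17689 it went from 84.1% to 62.9%, with 39 of 42 CpGs lower. On chromosome 19, far from its nearest coding gene Gpam, it went from 77.7% to 54.7%, with all 12 lower. The 5 best covered windows changed by -23.3 to -21.2 points, close to the median of the set, whereas the 10 largest losses had 55 to 404 summed reads in WT and 5 of them had CpGs of 1 strand alone.

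Among those 10, the Tgfb1i1 window lay in an exon. Tgfb1i1 encodes the focal adhesion adaptor Hic-5. All of its 5 CpGs fell, from a mean of 91.4% in WT to 40% in KI, with 70 and 90 summed reads. An intergenic window of chromosome 18 nearest to Galr1, a galanin receptor gene, went from 61.6% to 16.9% and was the only one under 20% in KI. Its 7 CpGs ranged from no loss to a fall of 91.7 points. The others were a window of chromosome 16 nearest to ORF63 (83.8% to 43.6%), one nearest to the LIM homeobox gene Lhx5 (74.4% to 35.1%) and one nearest to Cntn6, a contactin gene (75.9% to 37.4%), which is in the family of 17. The Lhx5 and Cntn6 windows lay 99.6 kb and 511 kb from those genes' starts.

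**Figure D3:**
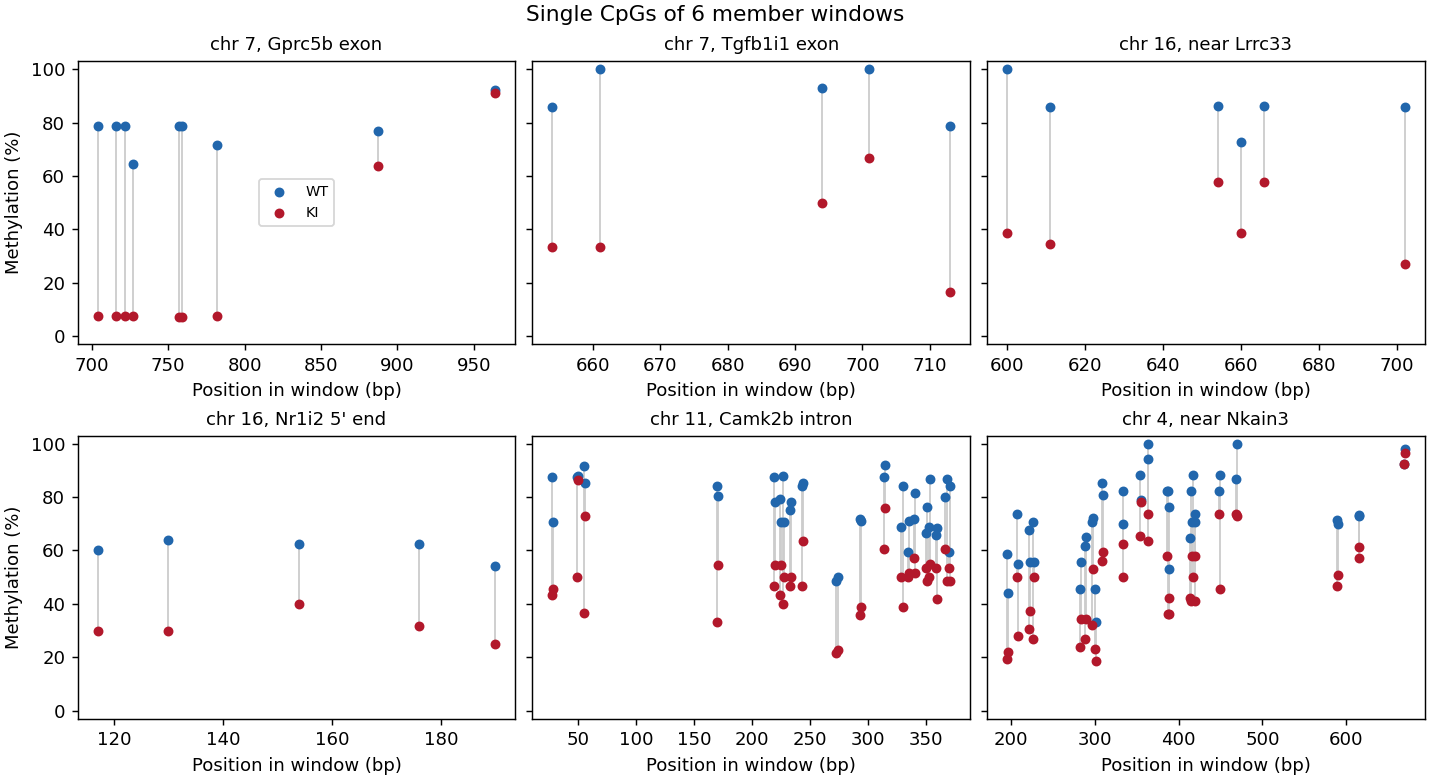
Methylation of single CpGs (vertical axis, %) by position in the 1 kb window (horizontal axis, bp) in WT (blue) and KI (red) for 6 of the windows, with a grey line joining the values of a CpG. In the Gprc5b window 7 CpGs were near 8% in KI and 2 were above 60%, whereas in the Camk2b window all 40 CpGs were lower in KI.

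Near the 5′ ends of protein-coding genes, 23 windows of the set were found, and the 10 with the largest losses are described here. The methylated windows near coding 5′ ends were not counted. Near the 5′ end of any gene other than a pseudogene, 32 of 1617 (1.98%) were in the set, below the 2.23% of all windows. Nr1i2 encodes the pregnane X receptor, which switches on xenobiotic metabolism in the liver. Its window, 757 bp from the start, went from 60.6% to 31.3%, and its 5 CpGs went from 54.2%-64.0% to 25%-40%. No CpG of KI reached the lowest of WT there. Lhcgr, the luteinizing hormone receptor gene, went from 60.9% to 31.7% and Ddr1, a collagen receptor gene, from 60.4% to 35.8%. Piwil2, which binds piRNAs in germ cells, had the highest WT level of these at 95.2% and stood at 66.5% in KI. Zfp42, known as the pluripotency marker Rex1, went from 83.3% to 54.9%. The channel genes Cacng6 and Accn1 went from 61.6% to 34.0% and from 72.4% to 48.2%. With reads summed in place of averaged CpGs, Cacng6 went from 56.4% to 38% and Ddr1 from 54.6% to 35.7%, so both missed both limits. Of the whole set, 203 windows missed a limit by summed reads. Olfr30, an olfactory receptor gene, went from 75.6% to 48.6%, and 1700036A12Rik from 77.1% to 47.6%. Apart from Accn1, with 2017 and 1667 summed reads, and Olfr30, with 717 and 640, they had 305 reads or fewer in either library.

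The 3 largest of the 23 groups, with 3 windows each, were on chromosomes 8, 11 and 4. In Camk2b, which encodes a calcium/calmodulin-dependent kinase subunit, 3 intronic windows within chr11:5906001-5911000 went from 67.9% to 42.5%, from 67.4% to 47.3% and from 76.8% to 49.6%. The last of them held 40 CpGs, all lower in KI. On chromosome 4 nearest to Nkain3, windows went from 81.3% to 57.5%, from 76.0% to 55.0% and from 72.5% to 48.9%, the last with 43 of 44 CpGs lower. On chromosome 8 nearest to Gm14851, they went from 71.0% to 43.5%, from 70.6% to 44.9% and, in the repeated stretch shown above, from 83.0% to 61.7%. Of single genes, Gm20388 held 4 of its 483 methylated windows in the set and Cdh13, the T-cadherin gene, 4 of 40. Of genes with 3 windows in the set, Ksr2 had 23 methylated windows, Unc5d 10, Myh13 5, Camk2b 9, Ccdc60 11, Anks1b 21 and Tmem132c 18. These genes were picked for their counts, so the shares are descriptions.

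Lists of liver, methylation and cell type genes were then looked up. Of the windows at 60% or more in WT within 5 kb of listed genes, the set held 0 of 27 for hepatocyte secreted proteins, 0 of 44 for liver metabolic enzymes and 1 of 50 for hepatocyte transcription factors and nuclear receptors, which was Nr1i2. It held 0 of 60 for the DNA and H3K9 methylation machinery, 0 of 109 for imprinted genes, and 2 of 70 for germline genes, namely Piwil2 and Syce3. Syce3, a gene of the synaptonemal complex, went from 88.5% to 65.3% over 28 CpGs. Of blood and Kupffer cell genes it held 0 of 27, and of genes of endothelium, stellate cells and cholangiocytes 0 of 54. At the 2.23% of all windows, lists of this size would hold few, so the counts of 0 to 2 say nothing about these genes. The median change of the lists ran from -0.706 points for the methylation machinery to -5.11 for blood and Kupffer cells, against -4.40 for all 53029 windows.

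Short motifs of liver transcription factors and of factors sensitive to methylation were searched in each 1 kb window on both strands. The FOXA forkhead motif TGTTTAC was in 14.3% of the set and 11.1% of all windows at 60% or more in WT. The AP-1 motif TGACTCA was in 14.4% and 13.4%, and the CRE TGACGTCA in 1.01% and 0.913%. The E-box CACGTG was in 12% and 16.6%, the HNF4 motif CAAAGTCCA in 0.423% and 1.07%, and the C/EBP motif TTGCGCAA in 0.0845% and 0.126%. No motif contains another, but the AP-1 motif and the CRE both begin with TGAC and end with TCA. The set had a lower GC content than the rest, and what base composition contributes to these shares was not tested.

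Measurements that had no part in the choice were then taken at the same places. For each window, the nearest measured windows within 5 kb on either side that were not in the set were averaged. Over the 334 windows with such a neighbour, the neighbours had a median change of -7.34 points (quartiles -11.6 and -3.43), against -3.02 (-6.48 and -0.340) for the neighbours of 25363 other windows. The neighbours were lower by 10 points or more for 113 (33.8%), against 10.8% of all windows with a neighbour. With neighbours at 60% or more in WT alone, the medians were -8.04 (n = 276) and -3.53 (n = 22102), and 108 (39.1%) were lower by 10 points or more, against 11.6% in all. Among windows at 60% to 80% in WT, the neighbours changed by -6.73 points beside the set (n = 170) and -3.29 beside the others (n = 5143). All methylated windows outside genes below 40% GC, where the set was most frequent, had a median change of -8.17 points. In such surroundings the neighbours changed by -9.72 points beside the set (n = 68) and -6.61 beside the others (n = 2064). Outside genes at 46% GC or more, they changed by -5.70 (n = 64) and -3.32 (n = 2872), and in genes or near a 5′ end at 46% or more by -6.68 (n = 72) and -1.77 (n = 11406).

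CpGs inside the windows that the choice had left out were lower too. The cytosines of CCGG sites had been set aside because end repair of MspI fragments can fill in an unmethylated base, and the strand with the higher level was used. In the set they went from a median of 88.6% to 78.8%, with a median change of -8.52 points (quartiles -14.6 and -3.55, n = 1059), against -2.75 in the others. With both strands of a site used, these were -4.85 and -1.64. Outside genes below 40% GC, with the higher strand, they were -8.99 (n = 402) and -4.70 (n = 5690). For 453 (42.8%) they were lower by 10 points or more, against 13.8% of all windows with such CpGs. These sites changed less than the CpGs between them, whose mean change was fixed at -20 points or beyond. CpGs with 5 to 9 reads in 1 or both libraries had a median change of -14.3 points (quartiles -27.4 and -4.00, n = 198), against -3.63 in the others. For 121 windows (61.1%) they were lower by 10 points or more, against 30.9% of all windows with such CpGs. Reads that span several CpGs can cover both kinds, so the left-out CpGs are in part read from the same molecules as the chosen ones. The neighbouring windows are not, as a rule.

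**Figure D4:**
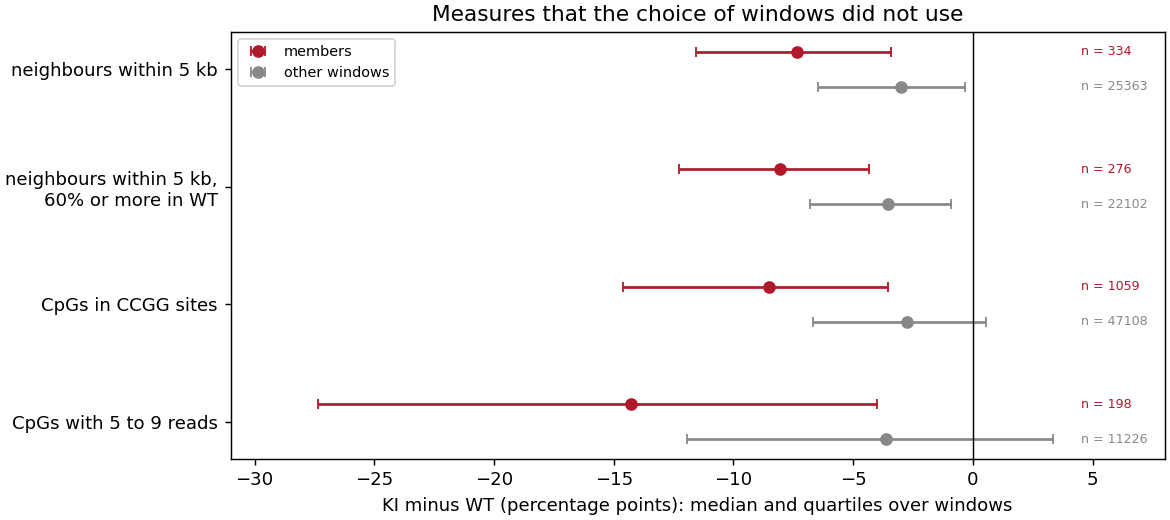
Change in methylation (horizontal axis, KI minus WT in percentage points) of 4 measures that did not choose the windows, as medians (points) and quartiles (bars) over windows, for the set (members, red) and other windows at 60% or more in WT (grey). The median of the set is lower in each, from -7.34 points for neighbours to -14.3 for CpGs with 5 to 9 reads.

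The lower level around the windows reached far and weakened with distance. Other methylated windows at 1 kb from a window of the set had a mean change of -9.03 points (115 pairs), those at 2 to 5 kb -8.00, those at 21 to 50 kb -7.04 and those at 201 to 500 kb -5.41 (16525 pairs). Around windows outside the set the mean was -4.14 at 1 kb, -3.54 at 2 to 5 kb and -4.06 at 201 to 500 kb. At 201 to 500 kb the surroundings of the set had thus not come back to the level around other windows. All methylated windows below 38% GC had a median change of -8.40 points, and the profile was not divided by GC content.

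**Figure D5:**
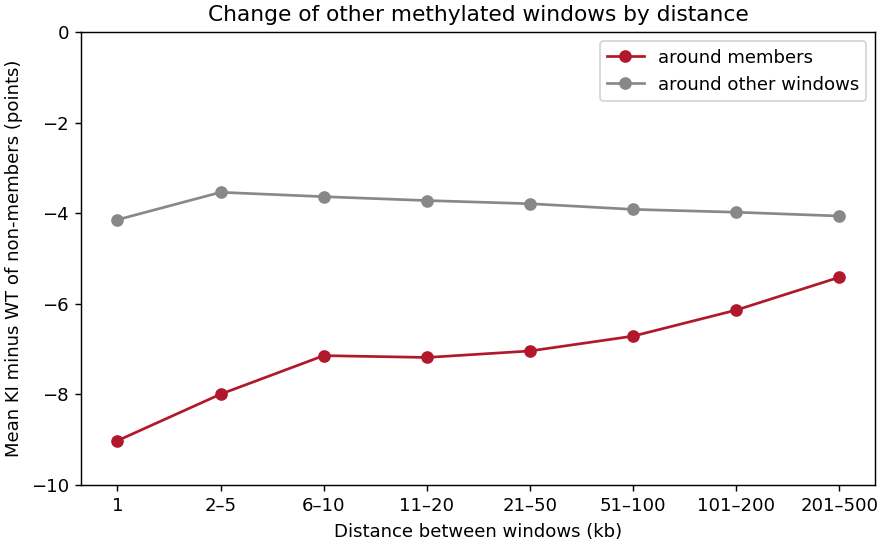
Mean change (vertical axis, KI minus WT in percentage points) of windows at 60% or more in WT that were outside the set, by their distance in kb (horizontal axis, unequal steps) from a window of the set (members, red) or from another window (grey). The red line rises from -9.03 points at 1 kb to -5.41 at 201 to 500 kb and stays below the grey line.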

How the data were processed

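Liver DNA of 3 WT and of 3 KI mice was pooled by genotype and examined by RRBS, which gave 1 library each. The authors mapped reads with Bismark to mm9 (the submitters' notes name version 0.12.20), kept uniquely mapped reads, and deposited for each CpG cytosine a read count (coverage) and the percent of reads methylated. Trimming and handling of duplicate reads are not given in the sources used here. Summed coverage was 192144002 in WT and 173109895 in KI. The deposited strand column was not informative, and strand was read from the mm9 sequence.

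Windows of 1 kb on chromosomes 1 to 19 were formed, without 45 to 65 Mb of chromosome 17. CpGs needed 10 reads in both libraries, CCGG sites were left out, and 5 CpGs were required. Annotation came from GENCODE in mm9 coordinates. Families are windows linked by shared 16-base words. Named windows were the 10 largest losses, the 5 best covered, the 10 largest losses within 1 kb of a coding 5′ end, the 3 largest groups, those at the limits, and those within 5 kb of listed genes. Printed stretches are coding, intronic or intergenic. The windows, gene lists and rules were chosen with earlier results of these data known, and no test was made. The steps were tested on simulated data. Alternatives varied the coverage minimum, strands, weighting, window placement, CpG number, mean or median, neighbour distance, CCGG handling and gene models. The tools were pysam 0.24.0, numba 0.67.0, scipy 1.17.1, matplotlib 3.10.9, pandas 2.3.3 and numpy 2.4.6 in Python 3.11.15.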

Additional observations from a re-analysis of the deposited data

Results flagged for a closer look

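Chromosome X was left out of the choice of windows. By the same limits, 137 of its 1950 windows at 60% or more in WT (7.03%, Wilson interval 5.97% to 8.25%, counting windows as independent) were lower in KI by 20 points or more, against 2.23% of the autosomal windows, and its median change was -7.12 points against -4.40. On chromosome 17 from 45 to 65 Mb, also left out, 18 of 547 windows were (3.29%, interval 2.09% to 5.14%). Chromosome X was not divided by GC content or annotation. Among autosomal windows below 38% GC in the surrounding 100 kb, the rate was 6.50% and the median change -8.40 points. With 1 library per genotype, none of these values has a replicate check.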

How the results depend on the processing

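The number of windows, 1183, became 442 of 33209 with the 2 strands of a CpG summed, 461 of 77529 with CCGG sites included, 223 of 24615 with at least 10 CpGs and 1803 of 53336 with the median of the CpGs. It was 1717 with at least 5 reads per CpG, 815 with at least 20, 1160 with reads summed over the window and 1143 with windows shifted by 500 bp. With the libraries exchanged, these settings gave 4 to 90 windows. The change of neighbouring windows, -7.34 points, became -6.62 with 5 reads, -8.68 with 20 reads, -6.09 with strands summed, -7.94 with reads summed over the window and -7.93 with windows of the set kept among the neighbours. The change at left-out CCGG sites, -8.52 points, became -8.24 with reads summed over the window and -4.85 with both strands of a site. The share outside gene bodies, 73.2%, became 70.3% with 5 reads and 69.5% with strands summed. No direction turned, and the cause of these shifts was not tested beyond the fewer or more CpGs that each setting leaves. No paired analysis was possible because each genotype has 1 library. For the same reason no replicate could be left out. Depth limits single windows, since many of the largest losses rest on 10 to 20 reads per CpG, several CpGs being read on the same molecules.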
